A study of Homo sapiens with 24 samples.

Results

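HEK293T cells, a human embryonic kidney line that carries the SV40 large T antigen, were transfected with an siRNA against *FMR4* (FMR4 siRNA) or with a non-targeting control siRNA (CTRL siRNA), and RNA was taken 6 h later. The comparison rests on the 3 arrays of each group, 6 of the 24 arrays of the study, and on all 18395 genes that a probe set names by a single symbol. Both siRNAs were used at 40 nM with a lipid carrier, Lipofectamine RNAiMAX, in cells grown in DMEM with serum. The study also holds the same siRNA pair at 24 h and cells given 0.5 µg of pcDNA3.1, either empty (CTRL pcDNA3.1) or carrying *FMR4* (FMR4 pcDNA3.1), with another carrier, Lipofectamine 2000CD. The 6 plasmid arrays of 6 h are used below as a level reached without siRNA, and they differ from the siRNA arrays in nucleic acid, reagent and amount. The labels do not say that the line was made clonal, and each array is 1 biological replicate pooled from 3 technical ones. Since nothing states that the replicates came from separate cultures, the p-values measure the spread between these samples, which may be technical.

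*FMR4* is a long non-coding RNA read from the strand opposite to *FMR1*, the gene silenced in fragile X syndrome, whose product FMRP binds mRNAs and restrains their translation. An siRNA is loaded into an Argonaute protein and directs cleavage of RNAs that pair with it fully, and it can also lower transcripts that match only its seed, as a microRNA does. The question asked of the 6 h arrays is which transcripts differ soon after the siRNA enters the cell. The array annotation names *FMR4* on no probe set, and the depth of the knockdown was not read from these arrays. In bulk samples such as these, fewer cells expressing a gene and less RNA per cell cannot be told apart.

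The values are log2 expression after background subtraction and GC-RMA normalization by the authors. The array medians lie between 7.43 and 7.53, and the number of arrays limits the precision. All 9 measured genes of a list typical of HEK293T had a mean above 6, the upper quartile of the mean level of olfactory receptor and keratin-associated protein genes, which serves here as the level of a silent gene. So did 8 of 11 blood and immune markers, 9 of 13 fibroblast, endothelial and muscle markers and 4 of 7 glial and liver markers. This level therefore does not separate the lists. *PTPRC* (4.37), *LYZ* (4.69), *DCN* (3.94) and *ALB* (4.78) lay below it. Other markers of blood, myeloid, fibroblast and liver cells lay above it, among them *CD8A* (7.45), *CD14* (6.94), *COL1A1* (8.29) and *APOA1* (7.68). None of these 4 lists had a gene called higher or lower at 6 h with all arrays by limma, and 1 of their genes had an unadjusted p under 0.05.

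The FMR4 siRNA arrays of 6 h stood apart from each other more than any other group of the study. The SD across genes of an array's difference from the mean of its other 2 replicates was 0.214 in FMR4 siRNA replicate 1, 0.162 in replicate 2 and 0.274 in replicate 3, and at most 0.159 in the other 21 arrays. Replicate 3 differed from its 2 partners by over 0.5 log2 units in 1235 genes, replicate 1 in 559 and replicate 2 in 105, against 15 to 58 genes in the CTRL siRNA arrays. Results are therefore given array by array, and with and without replicate 3.

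With no array of 6 h left out and the spread estimated over all 24 arrays of the study, 11 genes (0.0598% of those tested) were called, 6 higher (0.0326%) and 5 lower (0.0272%) with FMR4 siRNA (limma, Benjamini-Hochberg adjusted p under 0.05). The higher genes were *SAR1B*, *FAM209B*, *SPOPL*, *NEK7*, *TNRC6A* and *POLR3E*, and the lower genes were *ALCAM*, *ZDHHC20*, *FAT1*, *KMT5A* and *SINHCAF*. All 11 calls rest on that pooled spread. A limma fit to the 6 siRNA arrays alone gave the same differences and called 0 higher and 0 lower genes (137 and 157 at an unadjusted p under 0.05), with adjusted p from 0.468 for *ALCAM*, *ZDHHC20* and *SPOPL* to 1 for *FAT1*. A fit to the 12 arrays of 6 h called 2 higher, *SAR1B* and *SPOPL*, and 2 lower, *ALCAM* and *ZDHHC20*. Only 4 of the 11 changed by at least 1.5-fold. At an unadjusted p under 0.05 there were 275 higher and 443 lower genes, 1.49% and 2.41% of those tested. Without regard to the test, all 3 FMR4 siRNA arrays lay above all 3 CTRL siRNA arrays in 433 genes (2.35%) and below them in 597 (3.25%). In simulated data with 1 spread per gene for all arrays, the test recovered 23.9% of 67 genes given a log2 change of 0.25. It recovered 83.6% of 67 given 0.5 and 100% of 66 given 1, and called 6 probe sets given no change. Changes near 0.25 were thus mostly out of reach with 3 arrays a group. The FMR4 siRNA arrays of 6 h spread more than other groups, so these shares may be too high for the real comparison.

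The lower genes included 2 adhesion molecules of the cell surface. *ALCAM* (probe set 8081431), an immunoglobulin-like molecule that joins neighbouring cells, read 10.61, 10.25 and 10.32 in CTRL siRNA replicates 1 to 3 and 9.75, 9.66 and 9.69 in FMR4 siRNA replicates 1 to 3. The FMR4 siRNA arrays lay within 0.1 of each other and below every control, and the fall was 0.69 on the log2 scale (SE 0.0919, limma adjusted p = 0.00201), or 1.62-fold. *FAT1* (probe set 8104079), an atypical cadherin, read 10.32, 10.16 and 10.18 against 9.47, 9.47 and 9.94, and fell by 0.59 (SE 0.0924, limma adjusted p = 0.00561). Replicate 3 lay between its partners and the controls, at −0.28 from the CTRL siRNA mean against −0.75 in each of the others. *ZDHHC20* (probe set 7970524), an enzyme that attaches palmitate to cysteines of membrane proteins, read 9.60, 9.47 and 9.59 with CTRL siRNA and 8.79, 8.94 and 9.08 with FMR4 siRNA, a fall of 0.62 (SE 0.0883, limma adjusted p = 0.00365).

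The other 2 lower genes act on chromatin. *KMT5A* (probe set 8053733), the methyltransferase that places a single methyl group on a lysine of the histone H4 tail, read 12.34, 12.27 and 12.26 in the controls, 11.70, 11.76 and 12.10 with FMR4 siRNA, and fell by 0.44 (SE 0.0722, limma adjusted p = 0.0121). A further *KMT5A* probe set annotated with the same transcripts (7959574) fell by 0.43 (limma adjusted p = 0.0127), and the third (7972973), annotated with 1 transcript, differed by 0.07 (limma adjusted p = 1), so the 3 disagree. Probe sets that share transcripts can share target sequence, and their reading is uncertain to that degree. *SINHCAF* (probe set 8180256), a subunit of the SIN3 histone deacetylase complex, read 11.68, 11.67 and 11.73 against 11.12, 11.27 and 11.50, and fell by 0.40 (SE 0.0746, limma adjusted p = 0.0434). Its other probe set (7962146) differed by −0.41 and did not pass the test (limma adjusted p = 0.424). In *FAT1*, *KMT5A*, *SINHCAF* and *ZDHHC20*, FMR4 siRNA replicate 3 was the highest of its group and still below every CTRL siRNA array.

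Among the higher genes, *SAR1B* had the lowest p. It encodes the small GTPase that starts assembly of the COPII coat, in which cargo leaves the endoplasmic reticulum. Its level (probe set 8114193) was 10.86, 10.61 and 10.82 in the CTRL siRNA arrays and 11.26, 11.31 and 11.38 in the FMR4 siRNA arrays, a rise of 0.56 (SE 0.0747, limma adjusted p = 0.00201). *SPOPL* (probe set 8045514), a substrate adaptor of cullin ubiquitin ligases, read 7.94, 7.91 and 8.03 against 8.50, 8.46 and 8.45, and rose by 0.51 (SE 0.0794, limma adjusted p = 0.00561). The 3 FMR4 siRNA arrays lay within 0.05 of each other here, replicate 3 included. *TNRC6A* (probe set 7994187), which binds Argonaute proteins and recruits the enzymes that shorten and silence microRNA targets, read 10.39, 10.27 and 10.27 against 10.78, 10.71 and 10.64, and rose by 0.40 (SE 0.061, limma adjusted p = 0.00561). *POLR3E* (probe set 7993973), a subunit of RNA polymerase III, read 9.92, 9.99 and 9.80 against 10.36, 10.23 and 10.29, a rise of 0.39 (SE 0.0601, limma adjusted p = 0.00561). *NEK7* (probe set 7908543), a kinase of mitosis and of the NLRP3 inflammasome, read 10.07, 9.95 and 10.03 against 10.39, 10.45 and 10.44 and rose by 0.41 (SE 0.0764, limma adjusted p = 0.0434). *FAM209B* (probe set 8063531) had the largest estimate, 0.64 (SE 0.112, limma adjusted p = 0.0173), from 6.03, 5.90 and 5.63 to 6.36, 6.55 and 6.58, which is close to the level of a silent gene. In none of the 11 genes, which were chosen by p on these same arrays, did the groups overlap. Over all genes, 5.6% had no overlap.

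**Figure D1:**
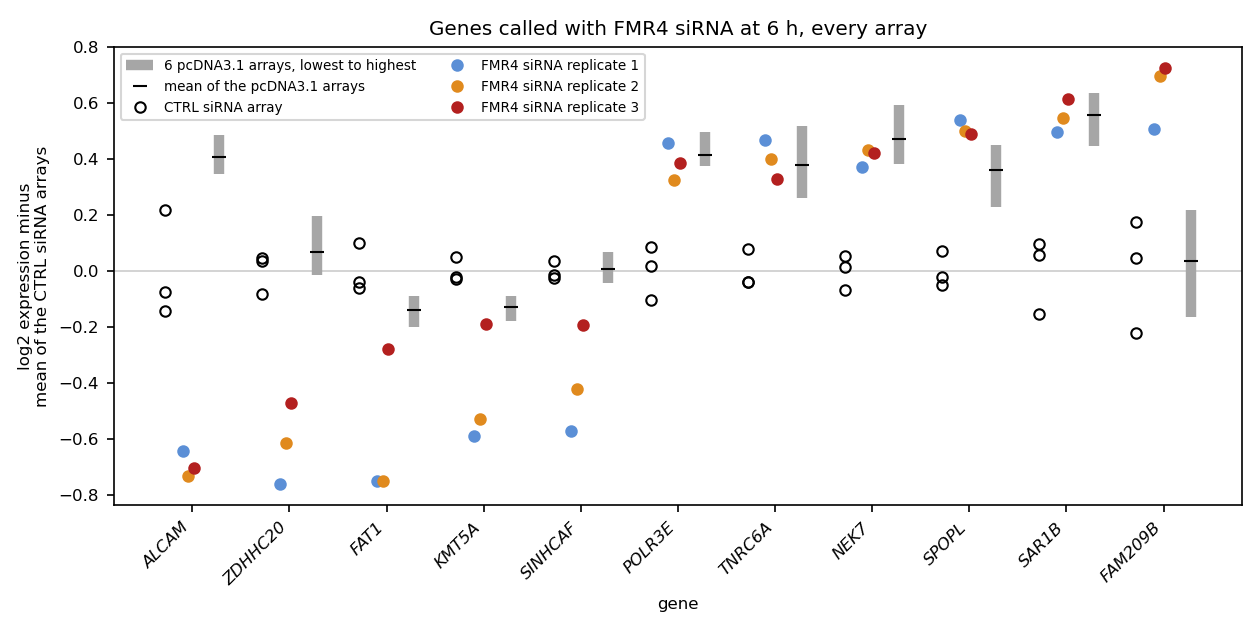
Log2 expression of the 11 called genes in each array of 6 h, drawn as the difference from the CTRL siRNA mean (y axis, log2 units) for each gene (x axis). Open circles are CTRL siRNA arrays, coloured circles FMR4 siRNA replicates 1 to 3, and the grey bar spans the 6 pcDNA3.1 arrays with their mean as a black line. For *SAR1B*, *NEK7*, *POLR3E* and *TNRC6A* the FMR4 siRNA arrays sit at the plasmid level, and for *ALCAM* and *ZDHHC20* they sit well below it.

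Set beside the plasmid arrays of 6 h, the higher and the lower genes had different layouts. This view was chosen after the values were seen, and both siRNA groups are set against the same 6 arrays. *SAR1B* averaged 11.32 in the plasmid arrays (11.21 to 11.40), so the FMR4 siRNA group differed from them by −0.00 and the CTRL siRNA group by −0.56. *NEK7* differed from the plasmid mean by −0.07 with FMR4 siRNA and −0.47 with CTRL siRNA, *POLR3E* by −0.03 and −0.42, and *TNRC6A* by 0.02 and −0.38. For these 4 genes the group away from the plasmid level was CTRL siRNA. *SPOPL* lay on either side of it, at 0.15 with FMR4 siRNA and −0.36 with CTRL siRNA. The lower genes had the other layout, with FMR4 siRNA the farther group. *ALCAM* differed from the plasmid mean by −1.10 with FMR4 siRNA and −0.40 with CTRL siRNA, *ZDHHC20* by −0.69 and −0.07, and *SINHCAF* by −0.40 and −0.00. *FAT1* differed by −0.45 and 0.14, and *KMT5A* by −0.30 and 0.13. *FAM209B* stood at 0.60 with FMR4 siRNA and −0.04 with CTRL siRNA. Untransfected cells are not among the groups, so a move of one siRNA group and an opposite move of the other cannot be told apart here.

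The siRNA arrays of 24 h, none of which is shared with 6 h, gave the same sign for all 11 genes and a call in the same direction for 10 of them, against 5.89% of all genes called at 24 h in either direction. Both comparisons use the same estimate of each gene's spread, from all 24 arrays, so the calls at 6 h and 24 h are not independent. *SAR1B* was higher by 1.18 at 24 h, *SPOPL* by 1.08, *TNRC6A* by 0.71, *POLR3E* by 0.63 and *NEK7* by 0.57. *FAT1* was lower at −1.12, *ZDHHC20* at −0.90, *KMT5A* at −0.88, *SINHCAF* at −0.60 and *ALCAM* at −0.56. *FAM209B* differed by 0.09 at 24 h and did not pass the test (SE 0.112, limma adjusted p = 0.813). The difference between the 2 times was itself tested, and passed for 218 genes (1.19% of those tested). The rise was larger at 24 h by 0.62 for *SAR1B* (SE 0.106, limma adjusted p = 0.00292) and by 0.57 for *SPOPL* (SE 0.112, limma adjusted p = 0.0112), and the fall of *KMT5A* was deeper, with a difference of −0.44 (SE 0.102, limma adjusted p = 0.0308). *FAT1* was just outside, at −0.52 (SE 0.131, limma adjusted p = 0.051), and *ALCAM* had nearly the same difference at each time (0.13 apart, SE 0.13, limma adjusted p = 0.786).

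**Figure D2:**
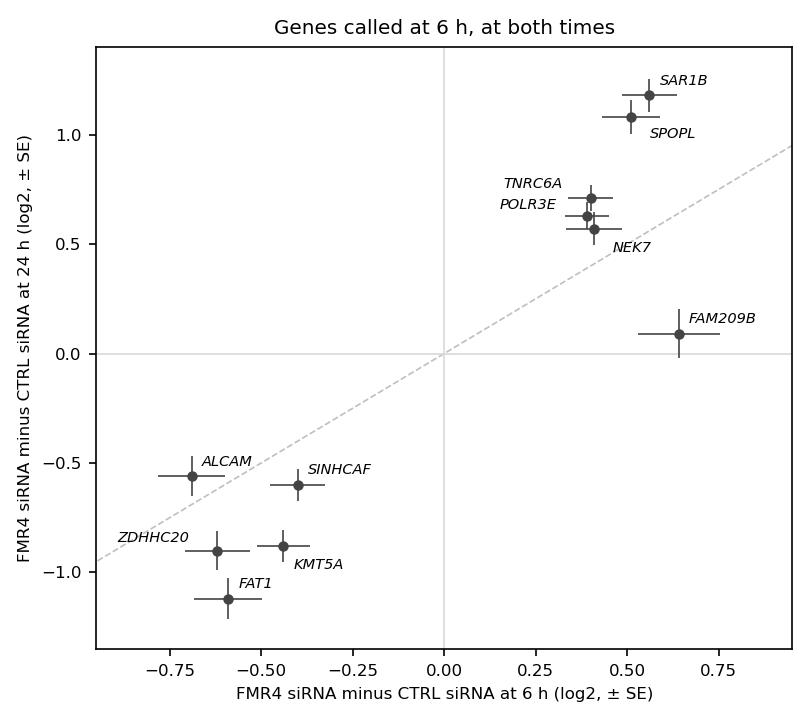
Difference between FMR4 siRNA and CTRL siRNA at 6 h (x axis, log2) and at 24 h (y axis, log2) for the 11 genes called at 6 h. Points are estimates from the fit to all 24 arrays, bars are 1 SE, and the dashed line marks equal differences at the 2 times. *SAR1B* and *SPOPL* lie above the line, *FAT1* and *KMT5A* below it, and *FAM209B* lies near 0 at 24 h.

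Across all genes the early and late differences were weakly correlated. Pearson's r between the mean difference at 6 h and that at 24 h was 0.14 over 18395 genes (Spearman's rho 0.05), a description across genes, which are not independent replicates. Taken array by array, r with the 24 h difference was −0.02 for FMR4 siRNA replicate 1, −0.00 for replicate 2 and 0.22 for replicate 3. Replicate 3, the array farthest from its partners, was thus the one most like 24 h across genes. The 3 values share the CTRL siRNA arrays of 6 h.

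With all arrays, no relative of the called genes in the 7 lists built around them passed the test, while some did without replicate 3. The lists were drawn up with the 11 genes known, so these counts describe the neighbours and test nothing, and a list built around a called gene holds a call by its making, against 0.0598% of all genes. Of 20 genes of the COPII coat and ER exit, *SAR1B* alone was called, and its close relative *SAR1A* read 11.99, 12.03 and 12.07 with CTRL siRNA and 11.69, 11.86 and 12.09 with FMR4 siRNA (difference −0.15, limma adjusted p = 1). Without replicate 3, *SAR1A* was called lower (−0.25, limma adjusted p = 0.026), as was *SEC31B*, a coat subunit (−0.37, limma adjusted p = 0.014), against 3.95% of all genes called lower and 0.69% higher in that fit. The median of the COPII list was 0.01, against −0.02 over all genes. Of 16 genes of the small RNA silencing machinery, *TNRC6A* alone was called. *AGO4*, an Argonaute, read 7.85, 8.09 and 7.93 against 8.38, 8.34 and 8.33, a difference of 0.39 that missed the threshold with all arrays (limma adjusted p = 0.236) and passed it without replicate 3 (0.40, limma adjusted p = 0.0229), and *TNRC6B* read 9.25, 9.30 and 9.13 against 9.08, 8.93 and 8.99 (difference −0.23, limma adjusted p = 0.928). In both genes the groups did not overlap, as in 5.6% of all genes. *DGCR8*, which binds microRNA precursors for cleavage, was called lower without replicate 3 (−0.36, limma adjusted p = 0.0113). With all arrays, calls numbered 1 of 20 among *SPOP* and cullin ligase genes, 1 of 23 palmitoyltransferases, 1 of 10 NEK kinases, 2 of 21 genes of the SIN3 complex and histone H4 methylation and 2 of 31 adhesion molecules, each being a gene named above. Without replicate 3, *NEK3* and *NEK5* joined *NEK7*, making 3 of 10 NEK kinases higher (30%, against 0.69% of all genes). That share counts *NEK7*, around which the list was built, and is raised by it. *NEK3* read 8.71, 8.95 and 8.67 with CTRL siRNA and 9.27, 9.07 and 7.95 with FMR4 siRNA, and *NEK5* read 5.94, 5.96 and 5.75 against 6.23, 6.24 and 5.78, near the level of a silent gene. In *NEK3*, replicate 3 lay below every control while its partners lay above them. In the same fit 6 of 31 adhesion molecules were lower (19.4%, against 3.95% of all genes), a share likewise raised by *ALCAM* and *FAT1*. Also lower were *CUL9* and *KCTD13* (with *SPOPL* higher), *ZDHHC18* with *ZDHHC20*, and the same 2 genes of the SIN3 list.

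The calls depended on the arrays used. In fits that omit CTRL siRNA replicate 1, 2 or 3 there were 5, 2 and 2 higher and 3, 3 and 3 lower genes. With FMR4 siRNA replicate 1 omitted there were 9 higher (0.0489%) and 4 lower (0.0217%), and with replicate 2 omitted 4 higher (0.0217%) and 2 lower (0.0109%). *ALCAM*, *ZDHHC20* and *SAR1B* passed whichever array was left out, with adjusted p up to 0.0174, 0.037 and 0.0185. The CTRL siRNA arrays carried the calls of 3 of the higher genes. *POLR3E* needed replicate 3 of them (adjusted p = 0.0524 when it is omitted, limma), *SPOPL* needed replicate 2 (0.0663) and *TNRC6A* needed each of these arrays (up to 0.0629). *FAT1* needed replicate 1 of CTRL siRNA and replicate 2 of FMR4 siRNA (up to 0.105), and *FAM209B* needed that last array and both CTRL siRNA replicates 2 and 3 (up to 0.177). *KMT5A*, *SINHCAF* and *NEK7* needed every array of the 6 but FMR4 siRNA replicate 3 (up to 0.165, 0.259 and 0.48). All 11 estimates kept their sign in these fits, from −0.77 to −0.59 for *ALCAM* and from 0.48 to 0.61 for *SAR1B*.

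Leaving out FMR4 siRNA replicate 3 had the opposite effect. The calls rose to 127 higher (0.69% of genes) and 727 lower (3.95%), and all 11 genes above were among them in the same direction. Both fits share every other array, so this is no separate support for the 11. FMR4 siRNA replicate 3 itself lay on the other side of the controls for most of the lower genes. It was above the highest CTRL siRNA array in 626 of the 727 and below the CTRL siRNA mean in 58. Over all 18395 genes it was below that mean in 9771, and its place beyond the highest or lowest control was not counted. This array was left out because it departs from its partners, so these counts are a description and no independent evidence. Of the 127 higher genes, replicate 3 was below the lowest CTRL siRNA array in 70 and above the CTRL siRNA mean in 35. At 24 h, 23 of the 127 were called higher (18.1%, against 3.44% of all genes, and 3.64% of the genes higher at 24 h) and 0 lower. Of the 727, 53 were called lower (7.29%, against 2.45%, and 11.8% of the genes lower at 24 h) and 8 higher.

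Of the genes called lower without replicate 3, 10 fell by at least 1 log2 unit, and the 8 largest falls among those in which replicates 1 and 2 lie below every control ran in 1 order over the arrays. *HSPB8*, a small heat shock protein, fell by 1.64 (limma adjusted p = 0.0397), more than 6 of the 8, and is not one of them because its replicate 2 (9.41) lies above the lowest control (8.89). *TNFRSF9*, a costimulatory receptor of the TNF receptor family, read 9.50, 9.76 and 10.53 in the CTRL siRNA arrays and 7.23, 9.30 and 11.06 in FMR4 siRNA replicates 1 to 3, while the plasmid arrays averaged 7.21. The 3 FMR4 siRNA arrays thus ran from the plasmid level to above every control. *ELSPBP1*, a sperm-binding protein of the epididymis, read 8.0, 8.19 and 8.88 with CTRL siRNA, 5.59, 7.55 and 8.85 with FMR4 siRNA, with a plasmid mean of 5.28. *CCN2*, the matricellular connective tissue growth factor, read 10.07, 10.17 and 10.61 with CTRL siRNA, 8.92, 9.33 and 11.03 with FMR4 siRNA, with a plasmid mean of 8.66. *SLC7A3*, a transporter of cationic amino acids, *THBS1*, the matrix protein thrombospondin-1, *ETV5*, an ETS transcription factor, *PTX3*, a secreted pentraxin of inflammation, and *MAMLD1* were likewise lowest in replicate 1 and highest in replicate 3. Without replicate 3 the falls of these 8 genes ran from −1.78 for *ELSPBP1* (SE 0.315, limma adjusted p = 0.00218) to −1.08 for *MAMLD1* (SE 0.18, limma adjusted p = 0.00157). With all 6 arrays, none of the 8 was called, and each had a limma adjusted p of 1. *HSPB8* and *S100P*, a calcium-binding protein, were also among the genes in which replicate 3 lay farthest from its partners, by 2.45 and 2.24 log2 units.

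The rises chosen in the same way were smaller, apart from *KLRC4-KLRK1*. *SLC7A11*, the cystine and glutamate antiporter, read 9.51, 9.93 and 9.51 with CTRL siRNA and 10.40, 10.12 and 9.38 with FMR4 siRNA. *PLA2G4A*, the phospholipase that frees arachidonic acid, read 7.74, 7.76 and 7.58 against 8.43, 8.13 and 7.0. Replicates 1 and 2 lay above and replicate 3 below every control in these 2 genes. *ANKRD46* read 9.01, 8.93 and 8.57 against 9.56, 9.32 and 8.64, and alone among the 8 largest rises was called at 24 h (0.79, SE 0.148, limma adjusted p = 0.00141). *DUSP19*, a dual-specificity phosphatase, and *CCDC122* had replicate 3 below the controls as well, at −0.54 and −0.43 from their mean. *HBZ*, the embryonic zeta globin, had it within the control range at 0.12. With all arrays its probe set used here (7991754) differed by 0.43. The other *HBZ* probe set (7991750), at a silent level (mean 4.07), differed by −0.07. *KLRC4-KLRK1*, a readthrough of 2 receptor genes of natural killer cells, is at a silent level except in replicate 2 (6.42, against 4.88 and 4.48 in replicates 1 and 3), so that single array carries its estimate.

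**Figure D3:**
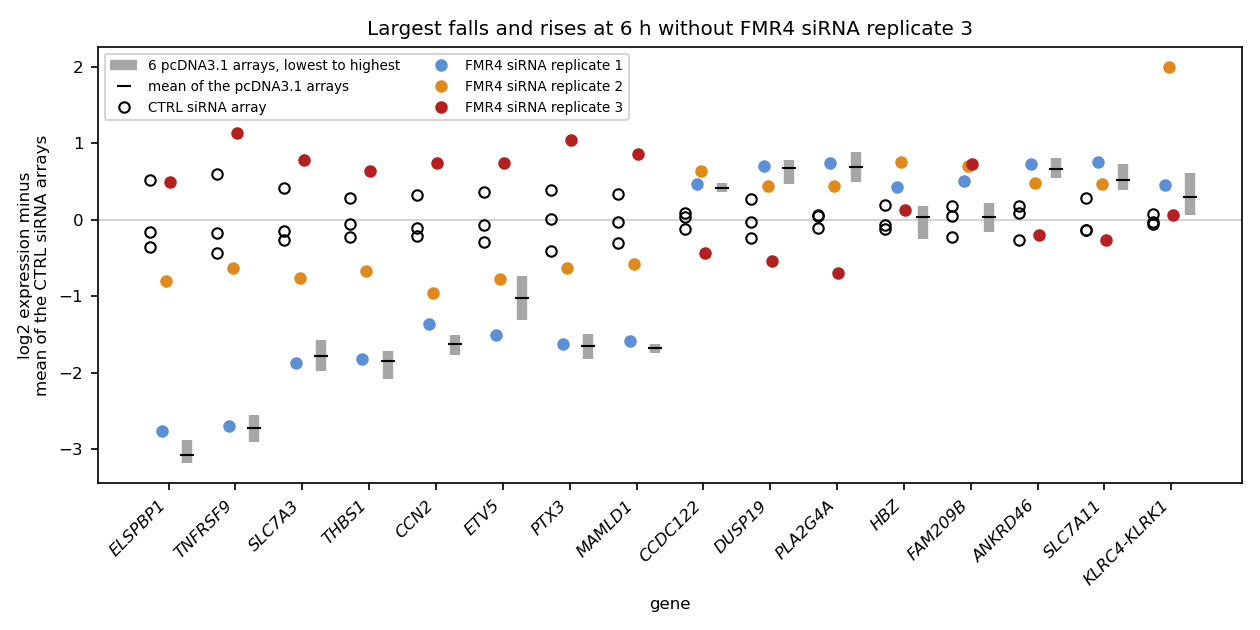
Log2 expression at 6 h of the 8 largest falls (left) and 8 largest rises (right) called without FMR4 siRNA replicate 3, among genes in which replicates 1 and 2 do not overlap the controls, as the difference from the CTRL siRNA mean (y axis, log2 units) for each gene (x axis). Symbols are those of the plot of the 11 called genes. In the falls, FMR4 siRNA replicate 1 lies within 0.5 of the plasmid mean, replicate 2 between replicate 1 and the controls (for *ETV5* inside the plasmid range), and replicate 3 at the controls or above.

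The same arrays were also set against genes picked by their levels in the other groups of 6 h. The call behind that choice uses the spread over all 24 arrays, the FMR4 siRNA arrays included. Chosen after the values were seen, this set holds the 22 genes called at least 1 log2 unit higher in CTRL siRNA than in the plasmid arrays at 6 h (0 genes were called lower by as much). They are *ACTA2*, *ANKRD29*, *CCN1*, *CCN2*, *DHRS7*, *EGR1*, *ELSPBP1*, *ETV5*, *HSPB8*, *MAMLD1*, *MYADM*, *NUPR1*, *PCDH10*, *PTX3*, *S100P*, *SH3BGR*, *SLC7A3*, *SUSD4*, *THBS1*, *TNFRSF10D*, *TNFRSF12A* and *TNFRSF9*. Their median difference from the plasmid mean was 1.11, 1.08 and 1.65 in the CTRL siRNA arrays, a level the choice of genes fixes. Genes picked for a high CTRL siRNA level tend to lie lower in any other siRNA array, and the set holds all 8 falls described above and shares 21 of its 22 genes with the genes called lower without replicate 3, so it is no separate support for them. In the FMR4 siRNA arrays it was 0.03 in replicate 1, 0.72 in replicate 2 and 1.95 in replicate 3, and in the single plasmid arrays −0.15 to 0.06. Over the 14 genes that are not among the 8 falls, the medians were 0.01, 0.64 and 1.76 in FMR4 siRNA replicates 1 to 3 and 0.96, 1.01 and 1.42 in the CTRL siRNA arrays. FMR4 siRNA replicate 1 was the lowest and replicate 3 the highest of the 3 in all 22 genes. Replicate 1 lay below every CTRL siRNA array in 22 genes and inside the range of the plasmid arrays in 14. Replicate 2 lay below every control in 19, and replicate 3 above every control in 21. The same counts were not made over all genes. Of all 18395 genes, 8971, 11725 and 9771 lay below the CTRL siRNA mean in replicates 1 to 3. At 24 h the siRNA arrays were back at the plasmid level, with medians from −0.00 to 0.15. None of the 22 was called between FMR4 siRNA and CTRL siRNA at 6 h or at 24 h by limma, where 1 and 0 of them reached an unadjusted p under 0.05.

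**Figure D4:**
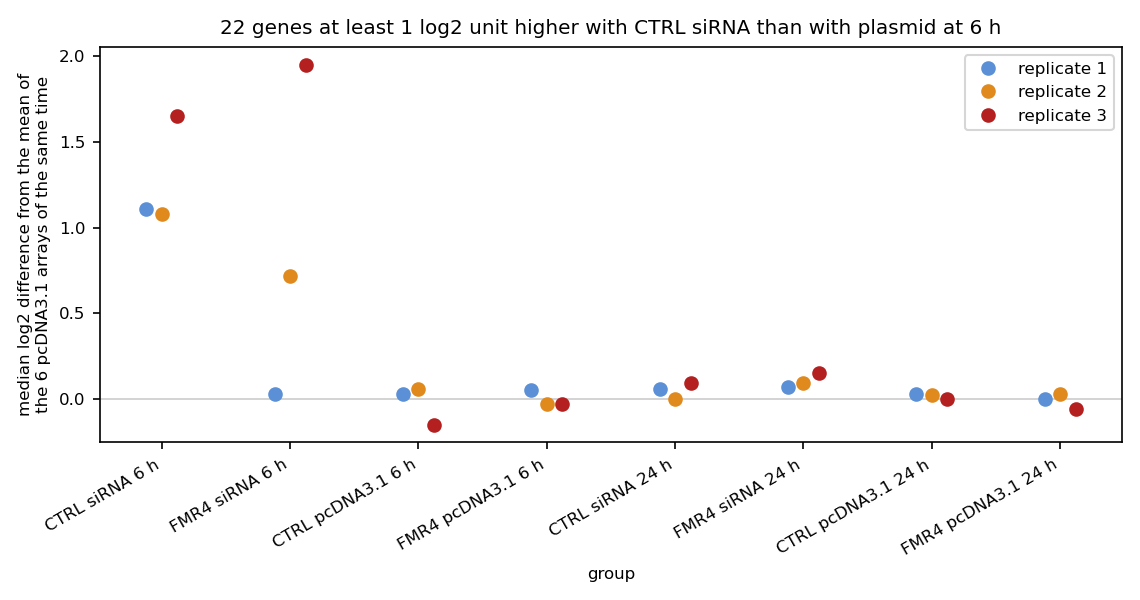
Median over the 22 genes of the log2 difference from the mean of the 6 pcDNA3.1 arrays of the same time (y axis) in each of the 24 arrays, by group (x axis) and replicate (colour). At 6 h the FMR4 siRNA arrays run from 0.03 to 1.95 while the CTRL siRNA arrays lie between 1.08 and 1.65, and at 24 h all arrays lie near 0.

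The list of immediate-early genes described below holds 3 of the 22, *EGR1*, a zinc finger transcription factor, and the matricellular genes *CCN1* and *CCN2*. *EGR1* read 10.48, 10.22 and 10.65 with CTRL siRNA and 9.33, 9.88 and 11.13 with FMR4 siRNA, with 9.36 on average in the plasmid arrays. *CCN1* read 9.36, 9.42 and 9.79 against 8.35, 8.95 and 10.13, with 8.39 in the plasmid arrays. RefSeq promoter windows (GRCh38.p14) were at hand for 12 of the 22, and the 250 bases before the start were searched on both strands for the CArG box, which serum response factor binds, and for GGAATG, the core bound by TEAD factors. A CArG box was found in 1 of the 12 (*EGR1*, with 2 boxes, starting 105 and 83 bases before the start), against 1.14% of 27305 promoters. GGAATG was found in 2 of the 12, *CCN2* with 3 copies starting 169, 104 and 95 bases before the start and *THBS1* with 1, against 11.9% of all promoters. A match is a description of the letters and says nothing of binding in these cells. The upstream windows of *EGR1* (chr5:138465229-138465478, plus strand) and *CCN2* (chr6:131951373-131951622, minus strand) are shown 5′ to 3′ because they hold those matches, in capitals.
EGR1: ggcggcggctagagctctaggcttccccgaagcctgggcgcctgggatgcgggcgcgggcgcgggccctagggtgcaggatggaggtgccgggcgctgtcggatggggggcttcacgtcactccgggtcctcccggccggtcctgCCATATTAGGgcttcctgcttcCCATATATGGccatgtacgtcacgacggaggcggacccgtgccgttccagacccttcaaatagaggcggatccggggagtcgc
CCN2: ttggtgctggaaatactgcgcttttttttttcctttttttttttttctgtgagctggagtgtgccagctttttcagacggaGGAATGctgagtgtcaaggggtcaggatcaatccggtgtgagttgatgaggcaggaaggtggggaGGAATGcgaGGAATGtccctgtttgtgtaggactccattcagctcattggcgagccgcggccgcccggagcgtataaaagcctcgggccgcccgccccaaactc

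The 35 measured immediate-early genes, which respond to growth factors and stress before new protein is made, followed the same order over the 3 arrays. Their median difference from the CTRL siRNA mean was −0.36, −0.26 and 0.18 in FMR4 siRNA replicates 1 to 3, against 0.00, −0.05 and −0.01 over all genes. Below that mean lay 31, 31 and 4 of the 35, against 8971, 11725 and 9771 of all 18395 genes. None of the 35 was called by limma at 6 h with all arrays or at 24 h (1 had an unadjusted p under 0.05 at 6 h). Without replicate 3, 12 of the 35 were called lower (34.3%, against 3.95% of all genes). *ZFP36*, which marks AU-rich mRNAs for decay, read 8.37, 8.26 and 8.33 with CTRL siRNA and 7.59, 7.84 and 8.42 with FMR4 siRNA (difference −0.37, limma adjusted p = 1; −0.61 and 0.0021 without replicate 3). *ID3*, an inhibitor of helix-loop-helix factors, read 9.66, 9.70 and 9.73 against 9.22, 9.30 and 9.80. For both genes replicates 1 and 2 lay below and replicate 3 above the controls. The summed log2 level of the list was 312.5 to 316.2 in the CTRL siRNA arrays and 301.6 to 322.4 in the FMR4 siRNA arrays.

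The 24 measured p53 targets, which halt the cell cycle or promote death after damage, had medians of −0.12, −0.17 and 0.16 in the 3 FMR4 siRNA arrays. By limma, 0 were called at 6 h with all arrays (0 at an unadjusted p under 0.05), and 6 were called lower without replicate 3 (25%, against 3.95% of all genes). *CDKN1A*, the cyclin-dependent kinase inhibitor p21, named here after its values were seen, read 9.51, 9.41 and 9.77 with CTRL siRNA and 8.80, 9.06 and 9.91 with FMR4 siRNA (difference −0.31, limma adjusted p = 1; −0.63 and 0.00147 without replicate 3). *PLK3*, a stress-activated polo-like kinase, read 7.72, 7.54 and 7.71 against 7.18, 7.30 and 7.86. *GDF15*, a secreted stress cytokine, read 7.76, 8.01 and 7.92 against 7.46, 7.73 and 7.90 and was not called without replicate 3 either (limma adjusted p = 0.0779). Whether p53 was active in these cells, which carry the large T antigen, was not tested. The 35 regulators of entry into S phase, a list that also holds *CDKN1A*, had medians of −0.10, −0.13 and 0.11. Without replicate 3, 7 of the 35 were lower (20%, against 3.95% of all genes) and 1 higher (2.86%, against 0.69%). Among them *TOB2*, an antiproliferative protein of mRNA deadenylation, read 9.97, 10.05 and 9.99 against 9.58, 9.64 and 10.05. Of 30 genes of TGF-beta and BMP signalling, 3 were called lower without replicate 3 (10.0%, against 3.95% of all genes), *SMURF1*, a ubiquitin ligase of that pathway, having the lowest p of the list (9.50, 9.60 and 9.57 against 9.23, 9.13 and 9.51).

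Genes of the interferon response and RNA sensing, which double-stranded RNA can switch on, gave no call between the siRNAs. Both groups received siRNA, so a response common to both would not appear in this comparison. Of 40 measured, 0 were called by limma at 6 h with all arrays or without replicate 3, 0 had an unadjusted p under 0.05 with all arrays, and the medians were −0.04, −0.02 and −0.03 in the 3 FMR4 siRNA arrays. All 3 FMR4 siRNA arrays lay above the controls in 1 of the 40 and below in 2, against 2.35% and 3.25% of all genes. The mean lay above the level of a silent gene in only 24 of the 40.

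**Figure D5:**
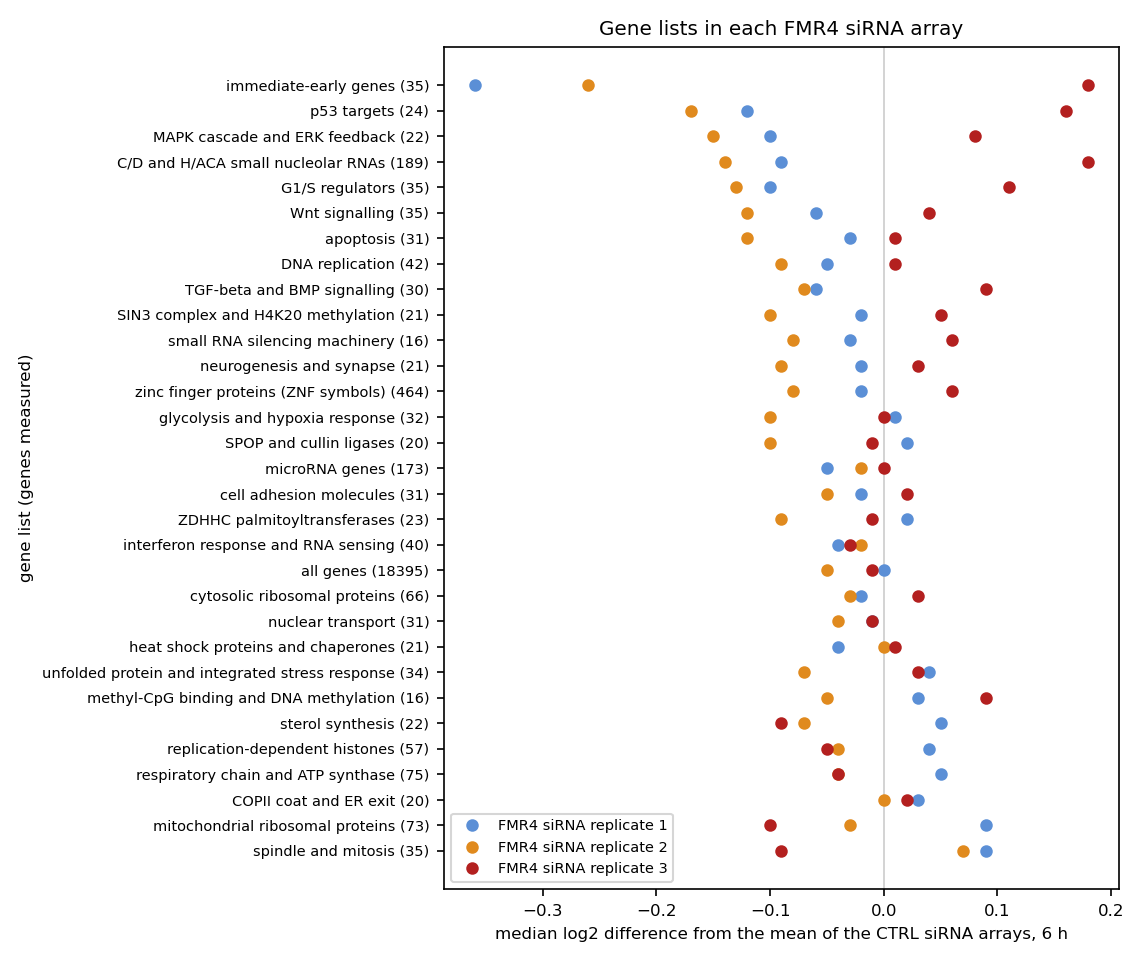
Median log2 difference from the CTRL siRNA mean at 6 h (x axis) of gene lists with at least 16 measured genes (y axis, number of genes in brackets) in FMR4 siRNA replicates 1, 2 and 3 (colours). The immediate-early genes span −0.36 to 0.18 over the 3 arrays, the p53 targets −0.17 to 0.16, and the interferon response list −0.04 to −0.02.

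Some genes that differed strongly at 24 h had small differences at 6 h. *RPA1*, the large subunit of the single-strand DNA binding protein of replication, read 10.47, 10.52 and 10.42 with CTRL siRNA and 10.31, 10.29 and 10.28 with FMR4 siRNA at 6 h, with no overlap but without a call (difference −0.18, SE 0.0523, limma adjusted p = 0.739), and differed by −0.92 at 24 h. *GGPS1*, which makes geranylgeranyl diphosphate, differed by −0.15 at 6 h (limma adjusted p = 1) and −1.03 at 24 h. *APAF1*, the core of the apoptosome, differed by −0.23 at 6 h (limma adjusted p = 1) and −0.79 at 24 h. The difference between the times passed the test for all 3 (limma adjusted p = 2.36e-05, 0.00023 and 0.0451).

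Of 7 genes that the study names, none was called at 6 h, and 0 had an unadjusted p under 0.05 (limma). *FMR1* read 10.48, 10.37 and 10.52 with CTRL siRNA and 10.47, 10.46 and 10.46 with FMR4 siRNA, a difference of 0.01 (SE 0.0604). *MBD4*, a glycosylase that removes thymine mispaired with guanine at methylated CpG sites, read 10.21, 10.16 and 10.26 against 10.25, 10.16 and 10.32 (difference 0.03, SE 0.0524). *YOD1*, a deubiquitinase, differed by −0.04, *GNG12*, a G protein gamma subunit, by −0.00, *RRM2*, a ribonucleotide reductase subunit, by 0.05 and *GAPDH* by −0.03. *MALAT1*, a nuclear long non-coding RNA, read 12.84, 12.95 and 13.26 against 12.49, 12.93 and 13.29, with a difference of −0.12 (SE 0.138). The limma adjusted p of all 7 was 1. The SEs of the 7 differences ran from 0.0467 to 0.138.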

How the data were processed

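RNA was extracted with Trizol and RNeasy, amplified with the Ambion WT Expression Kit and hybridised to Affymetrix Human Gene 1.0 ST arrays per the labels (version 2.0 in the study's methods). The deposited values are log2 expression, background-subtracted and GC-RMA normalized by the authors, and were used as they are. Of 33297 probe sets, 21214 have a gene in the array annotation and were tested. A gene is a single-symbol probe set, the one of highest mean where a gene has several (788 genes), and 27 symbols were updated.

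limma 3.58.1 (R 4.3.3) fitted 1 mean per group to all 24 arrays (16 residual degrees of freedom), without trend or robust options. The two-sided p-values were adjusted by Benjamini-Hochberg over those probe sets, with a threshold of 0.05, and the fit was checked on simulated data. All differences are on the log2 scale. The comparison, the 39 gene lists and the rule for naming genes were chosen with earlier results of these data known. The rule names every gene called at 6 h, the 8 largest rises and 8 largest falls called without FMR4 siRNA replicate 3 with no overlap with the controls, the 8 genes in which that array departs most, up to 2 genes of lowest p per list, paralogs, and 7 genes of the study. Named outside it are *CDKN1A* and those of the 22 genes above that it does not cover. Cell type markers outside it are *PTPRC*, *LYZ*, *DCN*, *CD8A*, *CD14*, *COL1A1* and *APOA1*. *SEC31B*, *DGCR8*, *CUL9* and *KCTD13* are outside it too, named because they were called without replicate 3. Alternatives were fits to fewer arrays, trend and robust moderation, array weights, quantile normalization, median centring, removal of dim probe sets, means over probe sets, adjustment over all probe sets, a replicate block, and each array left out. Figures were drawn with matplotlib 3.10.9.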

Additional observations from a re-analysis of the deposited data

Results flagged for a closer look

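For 6 of the genes named, the difference between FMR4 siRNA and CTRL siRNA at 24 h differed from that at 6 h by a test of the change itself (limma, Benjamini-Hochberg adjustment over all probe sets with a gene). The later difference was higher by 0.62 for *SAR1B* (limma adjusted p = 0.00292) and by 0.57 for *SPOPL* (limma adjusted p = 0.0112). It was lower by −0.44 for *KMT5A* (limma adjusted p = 0.0308), −0.74 for *RPA1* (limma adjusted p = 2.36e-05), −0.88 for *GGPS1* (limma adjusted p = 0.00023) and −0.56 for *APAF1* (limma adjusted p = 0.0451). Dixon's test of a single array against its group has little power in groups of 3 and was not run. The departure of each array is given above as a description.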

How the results depend on the processing

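The counts of calls at 6 h were small and moved with the model (limma throughout). A fit to the 12 arrays of 6 h called 2 higher and 2 lower genes, and a fit to the 6 siRNA arrays called 0 and 0 (137 higher and 157 lower at an unadjusted p under 0.05). Array weights called 25 and 89, and 983 genes for the difference between times. Means over probe sets called 3 lower. Each of these is a count for its own fit, and the cause of the changes was not tested. Leaving out 1 array gave 2 to 127 higher, 2 to 727 lower and 125 to 1529 genes for the difference between times, the highest of each without FMR4 siRNA 6 h replicate 3. Trend and robust moderation, quantile normalization, median centring, removal of dim probe sets and adjustment over all probe sets kept every count within 1.5 times.

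Deviations of same-numbered FMR4 siRNA and CTRL siRNA arrays from their group means correlated at 0.17, −0.06 and 0.47 across genes at 6 h. At 24 h the correlations were 0.08, −0.38 and −0.16. Both arrays numbered 3 at 6 h thus shared part of their deviation. Whether a number marks a shared culture or batch was not tested. With the replicate block, 3 higher, 2 lower and 119 genes for the difference between times were called.

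Of the genes named, the 11 called ones kept their sign under every alternative. Leaving out single arrays turned the sign of *TNFRSF9* (−1.66 to 0.25), *SLC7A3* (−1.32 to 0.01), *PTX3* (−1.13 to 0.21), *MAMLD1* (−1.08 to 0.14), *HSPB8* (−1.64 to 0.24), *S100P* (−1.06 to 0.26), *EGR1* (−0.85 to 0.06) and *CCN1* (−0.87 to 0.02), the lowest without FMR4 siRNA replicate 3 and the highest without replicate 1. The same 2 arrays gave the lowest and highest values for *SEC31B* (−0.37 to 0.01) and, reversed, *NEK3* (−0.27 to 0.39, and 0.26 with array weights and 0.01 after quantile normalization), and *CUL9* ran from −0.21 to 0.06. The sign also turned for *PLA2G4A* (−0.13 to 0.59) and *DUSP19* (−0.05 to 0.57), with the order reversed. Near 0 lay *FMR1* (−0.03 to 0.04), *MBD4* (−0.01 to 0.07, and −0.02 with array weights), *MALAT1* (−0.31 to 0.09), *YOD1* (−0.10 to 0.00), *GNG12* (−0.08 to 0.05, and 0.00 after centring) and *RRM2* (−0.00 to 0.12, and −0.01 as a mean over probe sets). Signal over background limits *FAM209B* and *KLRC4-KLRK1*, which lie near or below the level of a silent gene.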

Other observations

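Beyond the lists built around called genes, no list had a gene called at 6 h with all 6 arrays (limma), and several differed between the FMR4 siRNA arrays. The 189 C/D and H/ACA small nucleolar RNAs, which guide modification of ribosomal RNA, had medians of −0.09, −0.14 and 0.18 from the CTRL siRNA mean in replicates 1 to 3. Below that mean lay 126, 130 and 30 of them, against 8971, 11725 and 9771 of all 18395 genes. Without replicate 3, 21 of the 189 were called lower (11.1%, against 3.95% of all genes) and 0 higher (against 0.69%). With all arrays 6 were higher and 2 lower at an unadjusted p under 0.05, against 1.49% and 2.41% of all genes. Many of these RNAs are cut from introns of host genes, and an array probe can also read the host transcript.

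The 73 mitochondrial ribosomal protein genes had medians of 0.09, −0.03 and −0.10, and 0 had an unadjusted p under 0.05. Below the CTRL siRNA mean lay 11, 48 and 62 of them, against 8971, 11725 and 9771 of all 18395 genes. The 35 genes of the spindle and mitosis had medians of 0.09, 0.07 and −0.09. The 66 cytosolic ribosomal protein genes stayed at −0.02, −0.03 and 0.03. The 22 sterol synthesis genes had medians of 0.05, −0.07 and −0.09 and 0 calls, also at an unadjusted p under 0.05. In each of the small nucleolar RNA, mitochondrial ribosomal and mitotic lists, FMR4 siRNA replicates 1 and 3 lay on opposite sides of the controls.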
